A study of Mus musculus with 36 samples.

Results

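Lcn2 and 8 genes that move, change or store iron were followed in primary mouse enteric glial cells (EGCs) exposed to medium conditioned by colon tumors. The 9 genes were picked by name, with earlier results of these data known. They were Lcn2, Cp, Steap4, Slc39a14, Tfrc, Slc40a1, Fth1, Ftl1 and Slc11a2, which are 9 of the 43472 rows of the count table. The EGCs were wild-type cells grown from neurospheres of embryonic C57BL/6J mouse intestines and differentiated in serum-containing medium. They were left unstimulated, or were given medium conditioned overnight by dissociated cells of healthy colon (H-CM) or of orthotopic MC38 colon tumors (TME-CM), for 6, 12 or 24 h. Each of the 9 groups had 4 libraries, 36 in all. Both media hold whatever the mixed cells of a digested tissue release, so TME-CM against H-CM sets a tumor against a healthy colon, and TME-CM against unstimulated cells adds the effect of any tissue-conditioned medium. The sources used here do not say whether the 4 libraries of a group came from separate cultures, and the p-values below then measure only the spread between these libraries, which may be technical.

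Iron is taken up by cells bound to transferrin, through the transferrin receptor Tfrc, or as free ferrous iron, through the transporters Slc11a2 (DMT1) and Slc39a14 (ZIP14), after reductases such as Steap4 have converted ferric to ferrous iron. Inside the cell, iron is kept in ferritin, a shell of heavy (Fth1) and light (Ftl1) chains, and it leaves through Slc40a1 (ferroportin), the only known iron exporter of animal cells, helped by the copper oxidase ceruloplasmin (Cp). Lcn2 (lipocalin 2) is a secreted protein that binds bacterial siderophores and so withholds iron from bacteria. In inflammation, Lcn2, Cp and ferritin are known as acute-phase proteins and ferroportin is known to fall in macrophages. In glia of the central nervous system, Lcn2 and Cp are known markers of the reactive state.

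Ferritin, transferrin receptor and ferroportin mRNAs are also controlled after transcription, by iron regulatory proteins that bind a hairpin called the iron-responsive element. In a 5′ UTR the bound protein blocks translation, and in a 3′ UTR it protects the mRNA from decay. The RNA counts reported here see the second kind of control and not the first. The element was searched in the annotated transcripts of the mouse (GENCODE, GRCm38) as a bulged C, 5 bases, the loop CAGTG followed by A, C or T, and 5 bases that pair with the first 5, G-T pairs included. It was found in 4 of the 9 genes, against 23 of 21951 protein-coding genes (0.105%) with it in a 5′ UTR and 111 (0.506%) with it in a 3′ UTR. The sites are shown because this pattern was matched in these 4 genes and not in the other 5. The pattern allows no mismatch or added bulge in the 5 paired bases, so elements of another form are missed. A gene without a match may therefore still hold the element. Capitals mark the loop. The Fth1 site lies at chr19:9982733-9982759 on the plus strand, the Ftl1 site at chr7:45459780-45459806 on the minus strand and the Slc40a1 site at chr1:45925466-45925492 on the minus strand, all in the 5′ UTR. The 4 Tfrc sites lie in the 3′ UTR on the plus strand, at chr16:32631220-32631246, chr16:32631599-32631625, chr16:32631664-32631690 and chr16:32631711-32631737, in the order printed.
Fth1: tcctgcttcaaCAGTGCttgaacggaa
Ftl1: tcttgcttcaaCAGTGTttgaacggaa
Slc40a1: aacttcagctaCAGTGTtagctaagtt
Tfrc a: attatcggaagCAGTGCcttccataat
Tfrc b: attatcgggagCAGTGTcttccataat
Tfrc c: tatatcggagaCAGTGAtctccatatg
Tfrc d: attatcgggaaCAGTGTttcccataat

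Promoter windows of the 250 bases before the transcription start, from RefSeq on GRCm38.p6, were at hand for 6 of the 9 genes. None was at hand for Slc39a14, Slc40a1 and Slc11a2, whose promoters were not searched. The windows were searched on both strands for 3 patterns of letters. These were GGGA and TCC with any 3 bases between them (a narrow form of the NF-kB pattern), TTCNNNGAA (the STAT pattern) and TTNNGCAA (the C/EBP pattern). They stand for the families of factors that drive acute-phase genes in textbook accounts. Across 32851 windows of this length, 3.86%, 7.02% and 9.56% held these letters. The C/EBP pattern was found in windows of Lcn2, Cp, Steap4 and Fth1, and the STAT pattern in that of Steap4. Cp and Fth1 each had 2 windows, and only the downstream window held a match. The letters of this form of the NF-kB pattern were in none of the windows of the 6 genes. Other forms were not searched, so this does not show that NF-kB sites are absent. The windows of Tfrc and Ftl1 held none of the 3 patterns. The sites are shown because Lcn2, Cp, Steap4 and Fth1 are the 4 genes that rose with TME-CM over H-CM at both 12 and 24 h below. Of the genes not searched, Slc39a14 and Slc11a2 were higher than with H-CM at 24 h and Slc40a1 was lower, so the patterns cannot be set against the changes. Capitals mark the match on the strand of the gene. Distances are from a start that RefSeq gives. The Lcn2 site covers chr2:32387937-32387966 (minus strand), with the match 216 to 209 bases before the RefSeq start; the GENCODE span of the gene reaches farther upstream, so the site lies inside that span. The Cp site covers chr3:19957168-19957197 (plus strand), 70 to 63 bases before one of the Cp starts and inside the GENCODE span. The Steap4 sites cover chr5:7960346-7960374 (STAT) and chr5:7960374-7960403 (C/EBP), and the Fth1 sites chr19:9982506-9982535 and chr19:9982577-9982606, all on the plus strand, the latter 2 before the downstream one of the Fth1 starts and so inside the span of that gene. A match to these letters is a description and does not show that a factor binds there.
Lcn2: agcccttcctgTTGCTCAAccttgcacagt
Cp: attagttactcTTTTGCAAcattaaattgt
Steap4 STAT: ggttgaactcTTCCCGGAAactttgcttc
Steap4 C/EBP: cacagctcctcTTGCGAAAtcaagcgggcc
Fth1 distal: aggcaccgctcTTGCAGAAgctcagagccc
Fth1 proximal: gccctgcgggtTTGGGCAAcacgcccacag

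The libraries were QuantSeq libraries, which read the 3′ ends of mRNAs, and the table held raw counts per gene. Totals were 2005239 to 5961933 counts at 12 h and 1608018 to 7552509 at 24 h. At 6 h they ran from 256453 to 5244763 apart from replicate 4 of H-CM, which held only 13518 counts, so that a count of 0 there still allows 110 CPM (counts scaled to the effective size of the library, the scale of every level here). The common dispersion, a measure of the spread between replicates, fell from 0.572 at 6 h to 0.122 at 12 h and 0.0455 at 24 h, so the 6 h values are the least precise. A single entry, Yam1, took 11.0 to 48.6% of the counts of a 6 h library. Its share was 12.6 to 39.9% at 12 h and 12.7 to 35.1% at 24 h. All 8 enteric glia markers examined passed the filter on low counts at 24 h, and their summed level was 304 to 382 CPM in unstimulated cells, 354 to 388 with H-CM and 318 to 406 with TME-CM, with none of the 8 called at 12 or 24 h. The cultures also held fibroblast and smooth muscle transcripts. At 24 h the 5 fibroblast markers summed to 5118 to 6470 CPM in unstimulated cells, 4100 to 4945 with H-CM and 5597 to 6861 with TME-CM. The 5 smooth muscle markers summed to 6586 to 7549, 3036 to 3722 and 1563 to 2320 CPM at 24 h, in the same order. The part of these shifts in the results below was not tested, and in bulk RNA fewer cells of a type and less RNA per cell cannot be told apart.

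At 24 h most of the 9 genes were higher with TME-CM and ferroportin was lower. Against H-CM at 24 h, 6 of the 9 genes were higher and 1 was lower in edgeR's quasi-likelihood test, at an adjusted p under 0.05 over all genes tested, where 5.4% of all genes were called. At 12 h, 4 were higher and 1 lower, where 1.89% of all genes were called. Against unstimulated cells, 5 were higher and 1 lower at 12 h (4.41% of all genes called), and 7 were higher and 1 lower at 24 h (9.52%). The median log2 fold change of the 9 genes with TME-CM over H-CM was 1.20 at 12 h and 1.16 at 24 h, where the median over all genes was close to 0. The 9 genes were chosen with earlier results of these data known. These counts and medians therefore describe the chosen genes and cannot test whether iron genes as a set moved. Fewer of them were called with H-CM over unstimulated cells. Only Cp was called at 12 h (0.403% of all genes), and 4 genes at 24 h (2.03%), all higher. The comparisons share libraries, since TME-CM and H-CM are set against the same unstimulated cells and TME-CM against the same H-CM cells.

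**Figure D1:**
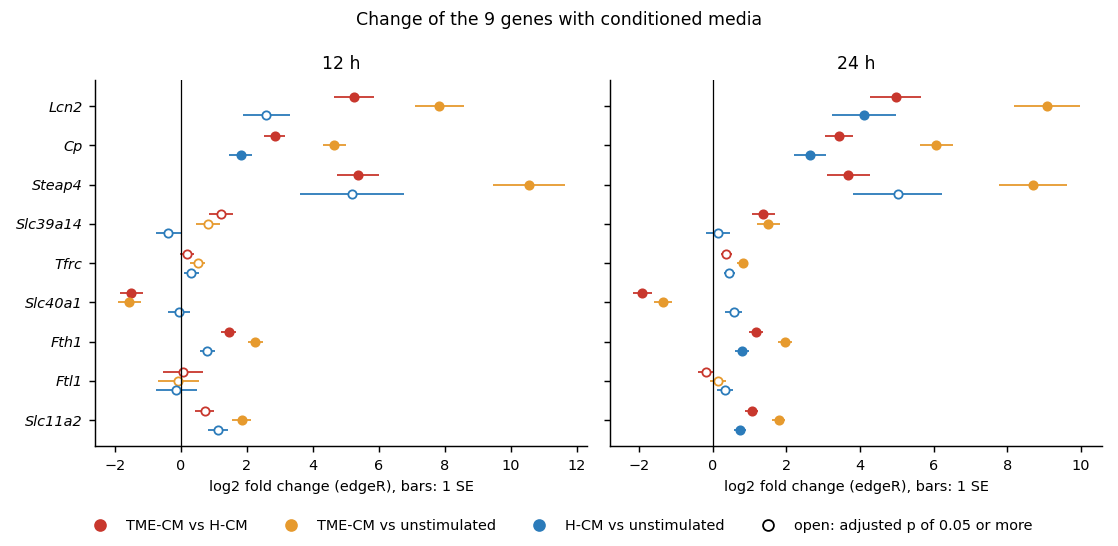
Log2 fold changes (x axis, edgeR, bars 1 SE) of the 9 genes (y axis) at 12 h and 24 h, for TME-CM against H-CM (red), TME-CM against unstimulated (orange) and H-CM against unstimulated (blue), with open points for an adjusted p of 0.05 or more. Lcn2, Cp and Steap4 lie farthest to the right, Slc40a1 alone lies to the left with TME-CM, and Ftl1 lies near 0 throughout; the Steap4 points against unstimulated cells are fitted values, since unstimulated libraries held 0 to 2 counts.

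Lcn2 (chr2:32384633-32388252, minus strand, GRCm38 as for the positions below) went from a low level to one of the most raised of the 9 genes. At 24 h it was at 1.50, 1.60, 2.40 and 1.61 CPM in the 4 unstimulated libraries, at 87.8, 18.5, 10.2 and 7.43 CPM with H-CM, and at 859, 1105, 975 and 1039 CPM with TME-CM. The 3 groups did not overlap, and H-CM replicate 1 stood far above the other H-CM libraries. Means were 1.78 ± 0.416, 31.0 ± 38.2 and 994 ± 105 CPM (SD, n = 4 each). TME-CM exceeded H-CM by 4.97 ± 0.69 on the log2 scale (SE, adjusted p = 0.00218) and unstimulated cells by 9.09 ± 0.90 (adjusted p = 0.000101). Without H-CM replicate 1, the difference from H-CM was 6.29 (adjusted p = 6.05e-13).

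The same order was present at 12 h. Lcn2 was at 2.04, 4.92, 1.06 and 2.33 CPM in unstimulated libraries, at 40.1, 9.17, 6.84 and 5.27 CPM with H-CM, and at 549, 578, 464 and 662 CPM with TME-CM. All TME-CM libraries lay above all others, by 5.25 ± 0.61 on the log2 scale over H-CM (adjusted p = 0.000864) and 7.83 ± 0.73 over unstimulated cells (adjusted p = 4.58e-05). Without H-CM replicate 1, which was again the highest of its group, the difference from H-CM was 6.32 (adjusted p = 2.34e-10). At 6 h no such separation was present. Lcn2 was then at 29.2, 14.9, 10.5 and 0.640 CPM in unstimulated libraries and at 32.7, 30.6, 16.8 and 15.9 CPM with TME-CM, which overlapped.

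The rise of Lcn2 between 6 and 12 h was itself called. In TME-CM libraries it rose by 4.54 ± 0.73 on the log2 scale from 6 to 12 h (adjusted p = 0.00166), the only one of the 9 genes called in that comparison, where 1.39% of all genes were. The difference between TME-CM and unstimulated cells grew by 6.92 ± 1.10 from 6 to 12 h (adjusted p = 0.0095, 0.0789% of all genes called). Without TME-CM 6 h replicate 3 this adjusted p was 0.0665. Part of this growth lay in the unstimulated cells, with means of 13.8 CPM at 6 h and 2.58 CPM at 12 h. Their own change, -2.38 ± 0.85, was not called (adjusted p = 0.563). The growth of the difference from H-CM, 5.07 ± 1.03, was not called (adjusted p = 0.12). Across the 9 groups the Lcn2 level at 24 h with TME-CM was above that at 12 h with no overlap, both stood clear of the rest, and the neighbours among the other 7 groups overlapped.

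Ceruloplasmin (Cp, chr3:19957054-20009145, plus strand), the copper oxidase that oxidizes iron as it leaves the cell, was the only one of the 9 genes called at 6 h. At 6 h Cp was at 8.64, 9.40, 21.0 and 11.3 CPM in unstimulated libraries and at 64.0, 64.9, 120 and 74.4 CPM with TME-CM, with no overlap. The difference was 2.76 ± 0.64 on the log2 scale (adjusted p = 0.0478), where 0.454% of all genes were called and the other 7 genes tested were not. This call was lost without any 1 of 5 libraries (unstimulated replicates 1, 2 and 4 and TME-CM replicates 3 and 4, adjusted p up to 0.247), with the 2 groups alone (0.112) and with DESeq2 size factors (0.0915). Against H-CM at 6 h, Cp differed by 1.77 ± 0.64 (adjusted p = 0.681), and none of the 8 genes was called (0.0972% of all genes).

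At later times Cp was higher in every TME-CM library than in any other. At 12 h it was at 5.09, 2.05, 6.88 and 3.97 CPM in unstimulated cells, at 28.2, 14.3, 10.7 and 12.0 CPM with H-CM, and at 125, 88.4, 136 and 109 CPM with TME-CM. The 3 groups did not overlap. TME-CM exceeded H-CM by 2.83 ± 0.31 on the log2 scale (adjusted p = 2.67e-05) and unstimulated cells by 4.64 ± 0.35 (adjusted p = 9.35e-08). At 24 h the libraries held 3.26, 4.81, 2.54 and 5.93 CPM in unstimulated cells, 50.7, 23.8, 15.5 and 14.4 CPM with H-CM, and 383, 226, 305 and 232 CPM with TME-CM. Again the groups did not overlap, and TME-CM exceeded H-CM by 3.43 ± 0.38 (adjusted p = 0.000171) and unstimulated cells by 6.07 ± 0.45 (adjusted p = 1.88e-06). The increase of Cp in TME-CM libraries from 12 to 24 h, 1.33 ± 0.33, was not called (adjusted p = 0.0586).

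**Figure D2:**
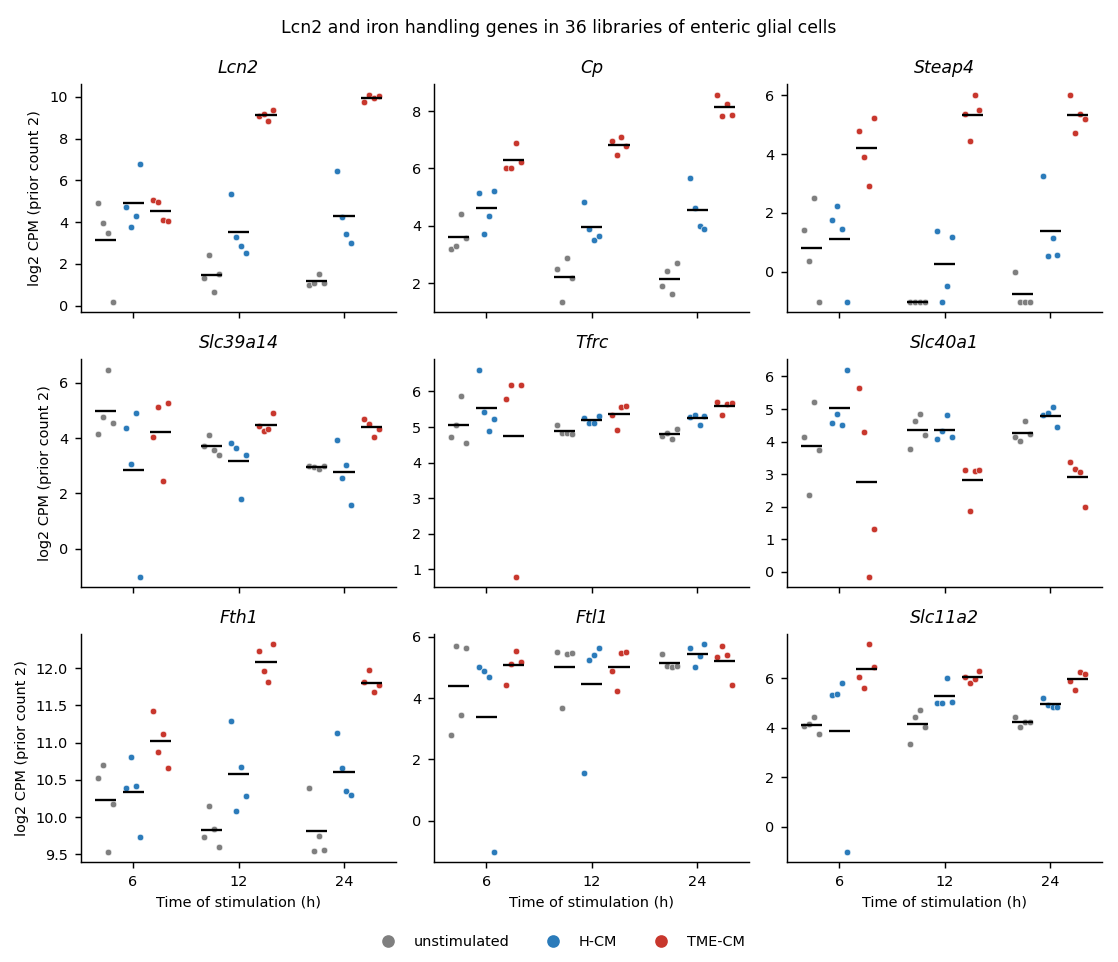
Log2 CPM with a prior count of 2 (y axis) of each of the 9 genes against the time of stimulation in hours (x axis), with a point for each library, a bar for the mean of its group, and grey, blue and red for unstimulated, H-CM and TME-CM. Red points of Lcn2, Cp and Fth1 lie above all other points at 12 and 24 h, red points of Slc40a1 lie below all others at the same times, and at 6 h several genes show 1 library far from its group.

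Steap4 (chr5:7960457-7982213, plus strand), a membrane reductase that turns ferric into ferrous iron, was almost undetected without TME-CM. At 12 h the 4 unstimulated libraries held 0 counts, the H-CM libraries were at 2.15, 0, 0.228 and 1.76 CPM and the TME-CM libraries at 40.6, 21.2, 64.1 and 44.5 CPM. TME-CM exceeded H-CM by 5.36 ± 0.65 on the log2 scale (adjusted p = 0.000303) and was at least 236-fold higher than the floor of 3 counts over the unstimulated group. At 24 h the unstimulated libraries were at 0.502, 0, 0 and 0 CPM, those with H-CM at 9.18, 0.972, 1.75 and 0.990 CPM and those with TME-CM at 64.9, 26.1, 40.5 and 36.4 CPM. TME-CM exceeded H-CM by 3.68 ± 0.58 (adjusted p = 0.00182), and without H-CM replicate 1, the highest of its group, by 4.95. Over unstimulated cells it was 574-fold higher (95% counting interval 159 to 4747), on 2 unstimulated counts. At 6 h Steap4 did not pass the filter on low counts and was not tested. The TME-CM libraries were then at 27.1, 14.3, 6.98 and 36.7 CPM. Unstimulated libraries were at 0 to 5.26 CPM (0 to 2 counts each) and H-CM libraries at 0 to 4.22 CPM (0 to 8 counts each).

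The transporters that bring iron into the cell had smaller log2 fold changes with TME-CM over H-CM. Slc11a2 (DMT1, chr15:100387898-100425072, minus strand), the ferrous iron transporter of endosomes and of the gut surface, was at 20.8, 16.0, 18.2 and 18.4 CPM in unstimulated libraries at 24 h, at 36.3, 29.5, 28.1 and 27.7 CPM with H-CM, and at 58.1, 46.0, 76.0 and 71.3 CPM with TME-CM. The 3 groups rose in that order with no overlap. TME-CM exceeded H-CM by 1.05 ± 0.17 on the log2 scale (adjusted p = 0.000351) and unstimulated cells by 1.79 ± 0.17 (adjusted p = 1.80e-07). In 1 model of all 36 libraries, which takes in the 6 h libraries with their wider spread, the former was 1.05 and was not called (adjusted p = 0.285). At 12 h the difference from unstimulated cells was 1.84 ± 0.30 (adjusted p = 0.000399), while that from H-CM, 0.72 ± 0.28, was not called (adjusted p = 0.312). H-CM replicate 3, at 64.3 CPM against 31.2 to 32.5 in the other H-CM libraries, decided this, for without it the difference was 1.04 (adjusted p = 0.0273). At 6 h the TME-CM libraries, at 65.4, 47.8, 164 and 88.1 CPM, lay above the unstimulated ones, at 13.0 to 21.0 CPM, but the difference of 2.45 ± 0.60 was not called (adjusted p = 0.0604).

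Slc39a14 (ZIP14, chr14:70303469-70351425, minus strand), which carries zinc as well as non-transferrin-bound iron and is known as an acute-phase gene of liver, was at 7.52, 7.21, 6.91 and 7.41 CPM in unstimulated libraries at 24 h. With H-CM it was at 14.8, 5.35, 7.76 and 2.48 CPM and with TME-CM at 25.1, 22.2, 16.0 and 19.6 CPM. Every TME-CM library lay above every other, while H-CM libraries lay on both sides of the unstimulated ones. TME-CM exceeded H-CM by 1.37 ± 0.31 on the log2 scale (adjusted p = 0.00855) and unstimulated cells by 1.50 ± 0.31 (adjusted p = 0.00191). Without H-CM replicate 2 the first of these missed the threshold (1.21, adjusted p = 0.0507), and in the model of all 36 libraries both did (adjusted p = 0.653 and 0.264). At 12 h the difference from H-CM, 1.20 ± 0.37, was not called (adjusted p = 0.129). Means with TME-CM were 23.4, 22.3 and 20.7 CPM at 6, 12 and 24 h and thus did not rise with time. With H-CM they were 14.6, 9.74 and 7.59 CPM. Unstimulated cells were at 39.0, 12.8 and 7.26 CPM, the first with 1 library at 89.3 CPM on 17 counts. Their changes between times were not called. The 6 h difference of TME-CM from unstimulated cells was -0.72 ± 0.82 (adjusted p = 0.941).

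Tfrc (chr16:32608920-32632794, plus strand), the receptor for iron-loaded transferrin, was called with TME-CM over unstimulated cells at 24 h and not over H-CM. At 24 h it was at 26.3, 28.2, 25.0 and 30.2 CPM in unstimulated libraries, at 38.1, 40.0, 32.8 and 39.1 CPM with H-CM and at 51.6, 40.3, 49.5 and 50.8 CPM with TME-CM. The 3 groups did not overlap, though the highest H-CM and the lowest TME-CM library were nearly equal. The rise over unstimulated cells, 0.81 ± 0.14 on the log2 scale, was called (adjusted p = 0.000437), and the difference from H-CM, 0.37 ± 0.14, was not (adjusted p = 0.179). In the model of all 36 libraries the rise over unstimulated cells was not called either (0.81, adjusted p = 0.9999). At 12 h the difference from H-CM was 0.18 ± 0.21 (adjusted p = 0.841).

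Of the ferritin chains, which share the 5′ element shown above, the heavy chain rose and the light chain was not called. Fth1 (chr19:9980598-9985098, plus strand), the heavy chain with the oxidase activity, was at 848, 1129, 918 and 775 CPM in unstimulated libraries at 12 h, at 2492, 1087, 1624 and 1239 CPM with H-CM, and at 4809, 3982, 3589 and 5105 CPM with TME-CM. TME-CM libraries lay above all others, by 1.44 ± 0.22 on the log2 scale over H-CM (adjusted p = 0.000914) and 2.24 ± 0.23 over unstimulated cells (adjusted p = 2.97e-06). At 24 h they were at 3595, 4009, 3274 and 3490 CPM, against 2232, 1615, 1307 and 1260 with H-CM and 1339, 744, 858 and 756 CPM in unstimulated cells. The difference from H-CM was then 1.16 ± 0.19 (adjusted p = 0.000893) and that from unstimulated cells 1.95 ± 0.20 (adjusted p = 1.44e-06).

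Ftl1 (chr7:45457944-45459884, minus strand), the light chain that helps the iron core to form, did not separate the groups. At 24 h it was at 43.1, 32.4, 31.6 and 32.5 CPM in unstimulated libraries, at 49.5, 31.6, 41.5 and 53.5 CPM with H-CM and at 40.4, 52.2, 41.8 and 21.1 CPM with TME-CM, all overlapping. The log2 difference was -0.18 ± 0.22 against H-CM (adjusted p = 0.777) and 0.14 ± 0.22 against unstimulated cells (adjusted p = 0.835), and at 12 h it was 0.06 ± 0.61 against H-CM (adjusted p = 0.987). Ftl1 is the least certain count of the 9. Of the 50-base words in the last 300 bases of its transcripts, 79.2% also occur in transcripts of 14 other genes, Ftl1 pseudogenes among them, and reads that mapped to several places were discarded before counting. The share was 8.73% for Fth1 and 0 for the other 7 genes.

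The ratio of Fth1 to Ftl1 counts within a library, which does not depend on library size, had a median of 25.2 in unstimulated cells, 38.3 with H-CM and 83.6 with TME-CM at 24 h. Its range with TME-CM, 76.8 to 165, did not overlap that with H-CM, 23.6 to 51.1. The difference between TME-CM and H-CM was 1.42 on the log2 scale (2-sided exact permutation test, p = 0.0286, the smallest that 4 against 4 libraries allow, 0.129 after Benjamini-Hochberg adjustment over the 9 comparisons). At 12 h H-CM replicate 1, with 9 Ftl1 counts, had a ratio of 1029, and TME-CM and H-CM did not differ beyond their spread (0.89, exact permutation p = 0.6). Since most 3′ words of Ftl1 are shared, the size of the ratio is that of uniquely mapped counts and not of the 2 mRNAs.

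**Figure D3:**
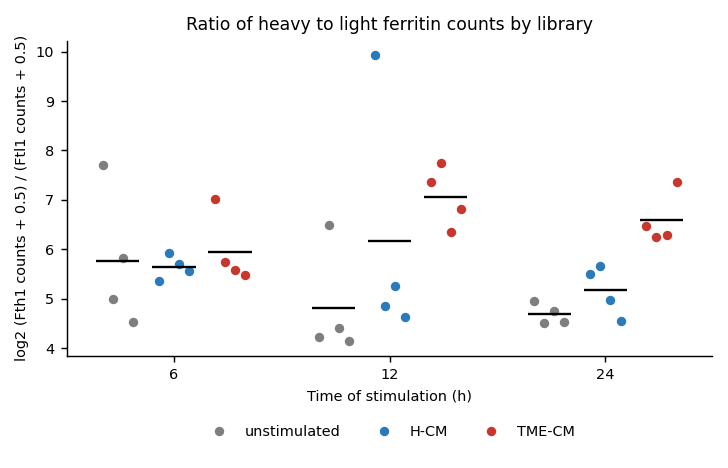
Log2 of the ratio of Fth1 to Ftl1 counts, 0.5 added to each (y axis), against time of stimulation in hours (x axis), with a point for each library and a bar for each group mean. At 24 h the 4 TME-CM libraries lie above all H-CM and unstimulated libraries, and at 12 h H-CM replicate 1 stands apart at a ratio of 1029.

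Slc40a1 (ferroportin, chr1:45908068-45926523, minus strand) was the only one of the 9 genes to fall with TME-CM. At 24 h it was at 17.1, 15.9, 24.4 and 18.2 CPM in unstimulated libraries, at 27.7, 29.0, 32.8 and 21.3 CPM with H-CM, and at 9.95, 8.44, 7.80 and 3.52 CPM with TME-CM. All TME-CM libraries lay below all others. The log2 difference was -1.93 ± 0.26 against H-CM (adjusted p = 4.69e-05) and -1.36 ± 0.26 against unstimulated cells (adjusted p = 0.000795), while H-CM itself differed from unstimulated cells by 0.57 ± 0.24 (adjusted p = 0.353). In the model of all 36 libraries neither TME-CM difference was called at 24 h (-1.90, adjusted p = 0.347, and -1.34, adjusted p = 0.690).

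At 12 h the TME-CM libraries were at 8.17, 3.20, 8.11 and 8.22 CPM, below the 16.4, 19.4, 27.8 and 17.3 CPM with H-CM and the 13.2, 24.2, 28.3 and 17.8 CPM of unstimulated cells. The difference was -1.51 ± 0.35 from H-CM (adjusted p = 0.0222) and -1.57 ± 0.35 from unstimulated cells (adjusted p = 0.00758). Leaving out H-CM replicate 2 or TME-CM replicate 1, 2 or 4 took the first above the threshold (adjusted p 0.0512 to 0.0568), as did a model of the 2 groups alone (0.0523). In the model of all 36 libraries both 12 h calls were lost (adjusted p = 0.661 and 0.375). Slc40a1 is abundant in macrophages, and the 9 macrophage markers in the table summed to 56.6 to 230 CPM in unstimulated libraries at 24 h, 74.8 to 345 with H-CM and 71.5 to 371 with TME-CM. None of the 9 was called at 12 or 24 h. In each medium at 24 h, replicates 1 and 2 had the higher sums, 200.4 to 371 CPM, and replicates 3 and 4 the lower, 56.6 to 124 CPM. The part of macrophages in the Slc40a1 levels was not tested.

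H-CM raised part of the same set over unstimulated cells, by less. At 24 h Lcn2 was higher by 4.12 ± 0.87 on the log2 scale (adjusted p = 0.0453), Cp by 2.64 ± 0.44 (adjusted p = 0.00807), Fth1 by 0.79 ± 0.19 (adjusted p = 0.0357) and Slc11a2 by 0.74 ± 0.17 (adjusted p = 0.0252). Steap4, at 39.8-fold (95% counting interval 10.6 to 335) on 2 unstimulated counts, was not called (adjusted p = 0.0557). H-CM replicate 1 carried much of this. Without it, Lcn2 was higher by 2.79 (adjusted p = 6.46e-06), Cp by 2.10 (adjusted p = 0.000268) and Steap4 by 3.77 (adjusted p = 0.0301), while Fth1 (0.59) and Slc11a2 (0.64) both lost their calls (adjusted p = 0.105). Both were also not called in the model of all 36 libraries (adjusted p = 0.515 and 1), and with the 2 groups alone neither Lcn2 (adjusted p = 0.104) nor Fth1 (0.0696) was. The Lcn2 call was also lost without H-CM replicate 2 or any 1 of the 4 unstimulated libraries (adjusted p up to 0.147), and those of Fth1 and Slc11a2 each without any 1 of 5 libraries. At 12 h Cp was higher by 1.81 ± 0.35 (adjusted p = 0.0171), and its call was lost without H-CM replicate 1 or unstimulated replicate 1, 2 or 4 (adjusted p up to 0.102) and with the 2 groups alone (0.207).

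Between time points few of these genes were called. None of the 9 was called between 12 and 24 h with TME-CM (0.626% of all genes called), with H-CM (0.00763%) or in unstimulated cells (0.0153%), nor between 6 and 12 h with H-CM (0.0395%) or in unstimulated cells (0.205%). How far the difference made by TME-CM changed between 12 and 24 h was called for none of the 9, either against H-CM (0% of all genes, 436 of which had an unadjusted p under 0.05) or against unstimulated cells (0.00763%). Between 6 and 12 h, the change in the difference from H-CM was likewise called in 0% of all genes, 1228 of which had an unadjusted p under 0.05. H-CM against unstimulated cells at 6 h gave calls in 0% of all genes by edgeR, 58 of which had an unadjusted p under 0.05. Ordered by mean level over the 9 groups, Cp with TME-CM at 24 h stood clear of TME-CM at 12 and 6 h, which overlapped and stood clear of the rest. Fth1 with TME-CM at 12 and 24 h overlapped and stood clear of TME-CM at 6 h, and Slc11a2 was lower in all 3 unstimulated groups than in the H-CM group at 24 h. For Steap4, Slc39a14, Tfrc, Slc40a1 and Ftl1 every pair of neighbours in that order overlapped.

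Of 54 other genes of iron and heme handling, 36 were tested at 12 and 24 h. This list too was drawn up with earlier results of these data known, so its shares are descriptions. With TME-CM over H-CM at 24 h, 5 were higher and none lower, 13.9% of those tested where 5.4% of all genes were called, and at 12 h 2 were higher (5.56%, against 1.89% of all genes). Over unstimulated cells, 8 were higher at 24 h (22.2%, against 9.52%), and 5 were higher and 1 lower at 12 h (16.7%, against 4.41%). Haptoglobin (Hp), an acute-phase protein that binds free hemoglobin, rose most, by 4.21 ± 0.41 on the log2 scale at 24 h (adjusted p = 1.14e-06), from 36 counts over the H-CM group to 729 over the TME-CM group, with 1 count over the unstimulated group. Steap2 and Steap1, relatives of Steap4, rose by 1.31 ± 0.19 (adjusted p = 0.000114) and 1.21 ± 0.22 (adjusted p = 0.00106). Fbxl5, the ubiquitin ligase subunit that senses iron and degrades an iron regulatory protein, rose by 1.04 ± 0.20 (adjusted p = 0.00218) and Alas1, the first enzyme of heme synthesis, by 0.54 ± 0.15 (adjusted p = 0.034).

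By role, the 5 calls over H-CM at 24 h were 2 of 10 heme genes, 2 of 8 uptake genes and 1 of 4 regulators of iron. The other groups tested held no call, with 8 genes of mitochondrial iron, 2 of storage, 2 of copper supply to ceruloplasmin, 1 of export and 1 of other sequestration. With 5.4% of all genes called, the absence of calls in groups this small is not a result about them, and the groups were not compared. The median log2 fold change over the list was 0.11 at 24 h. Hmox1, which breaks down heme, was called against unstimulated cells at 12 h with H-CM (2.07) and with TME-CM (1.63), and was not called between the media.

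**Figure D4:**
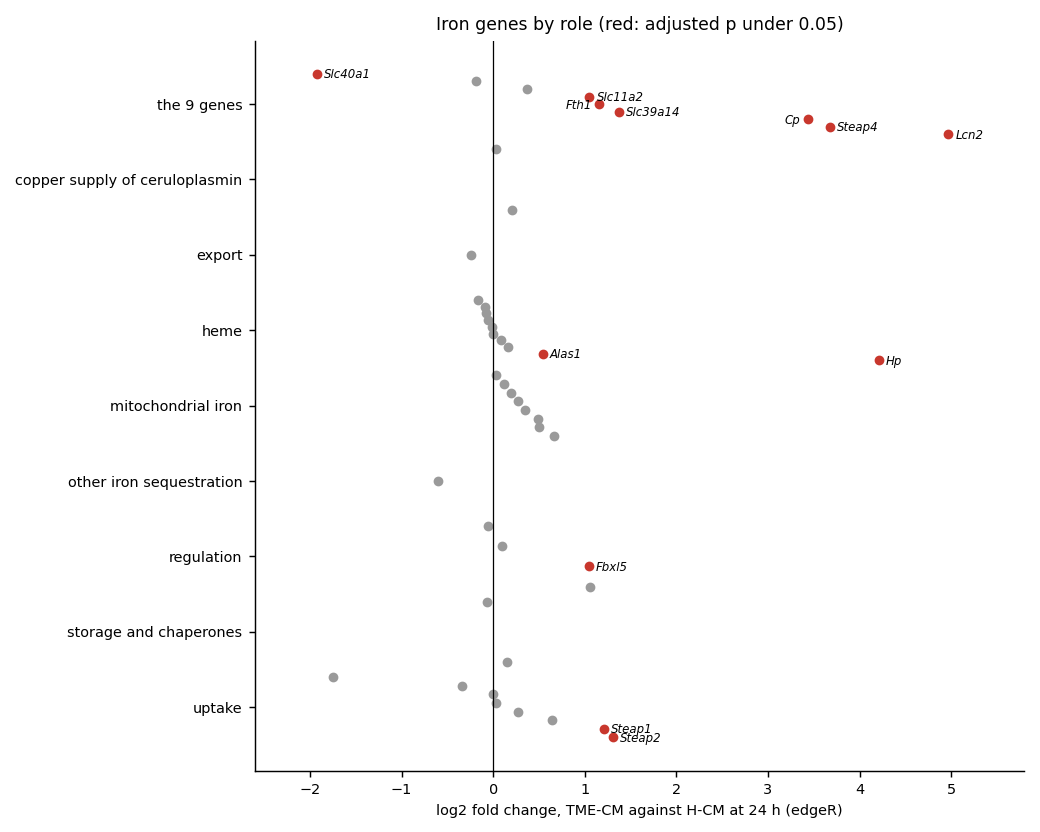
Log2 fold change with TME-CM over H-CM at 24 h (x axis, edgeR) of the 9 genes and of the 36 other tested iron genes, in rows by role (y axis), with red points for an adjusted p under 0.05. Lcn2, Steap4, Cp and Hp lie above 3 and Slc40a1 is the only red point below 0.

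Transcripts of 9 known regulators of Lcn2 were also followed, all tested at 24 h. The list was drawn up with earlier results of these data known. Against H-CM at 24 h 3 were higher and none lower, 33.3% where 5.4% of all genes were called. Cebpd rose by 2.50 on the log2 scale (adjusted p = 1.24e-05), Nfkbiz by 1.82 (adjusted p = 3.93e-06) and Socs3, an inhibitor of STAT signaling induced by it, by 2.13 (adjusted p = 3.93e-06). Not called in that comparison were Cebpb (1.20, adjusted p = 0.0745), Nfkb1 (0.73, 0.310), Nfkb2 (0.65, 0.0507), Relb (0.67, 0.182), Stat3 (0.18, 0.509) and Rela (0.05, 0.915). Over H-CM at 12 h 4 were higher (44.4%, against 1.89% of all genes), with Cebpb among them (1.45, adjusted p = 0.00412). Over unstimulated cells 7 were higher at 12 h (77.8%, against 4.41%) and 7 at 24 h (77.8%, against 9.52%). Rela was called at neither time, Nfkb1 only at 12 h and Stat3 only at 24 h. Cebpd, a C/EBP factor, was at a mean of 24.5 CPM in unstimulated cells, 52.2 with H-CM and 299 with TME-CM at 24 h. At 6 h Cebpd was higher than with H-CM by 2.04 (adjusted p = 0.0441), the only one of the 9 called, where 0.0972% of all genes were. Whether these regulators act on the iron genes here was not tested.

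The genes whose levels ran most like those of Lcn2 across the 24 libraries of 12 and 24 h were Saa3 (Pearson r = 0.990), Mmp9 (0.977), Bnip3 (0.972), Serpina3f (0.967) and Cp (0.966), out of 10862 genes. For Cp and Steap4 the nearest gene was also Saa3, at 0.983 and 0.972, and for Fth1 it was Bnip3, at 0.976. Slc11a2 ran closest to Nfkbia (0.931), Slc39a14 to Rgs16 (0.860) and Slc40a1 to Susd4 (0.884). Lcn2 and Fth1 ran together (0.958), Lcn2 and Slc40a1 ran opposite (-0.76), and Lcn2 and Ftl1 did neither (-0.06). These are descriptions over libraries that share 3 stimulations, and much of each r is the difference between TME-CM and the other groups.

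Lcn2 is also a product of neutrophil granules. The 9 neutrophil markers summed to 6.06 to 11.0 CPM in unstimulated libraries at 24 h, 7.92 to 12.2 with H-CM and 26.5 to 43.7 with TME-CM. At 12 h the sums were 3.28 to 26.7, 0 to 18.7 and 15.4 to 72.0 CPM, in the same order. The TME-CM sums were thus the higher ones at these times, without overlap at 24 h and with overlap at 12 h. The 6 h medians ran the other way, at 55.1 CPM in unstimulated cells, 79.7 with H-CM and 4.44 with TME-CM. Their ranges overlapped, at 10.5 to 310, 0 to 112 and 0.822 to 70.7 CPM. Of the 9 markers, 3 passed the filter on low counts at 12 and 24 h. Against H-CM, S100a8 differed by 2.24 on the log2 scale at 12 h (adjusted p = 0.314) and by 3.33 at 24 h (adjusted p = 4.89e-06), Camp by 3.38 (adjusted p = 0.0953) and 0.99 (adjusted p = 0.389), and Mpo by 1.83 (adjusted p = 0.627) and 0.96 (adjusted p = 0.405). Against unstimulated cells at 24 h, S100a8 and Camp were higher, by 5.06 (adjusted p = 2.13e-08) and 3.07 (adjusted p = 0.0012). Over all 36 libraries the 9 markers held 1259 counts of Mpo, 830 of S100a8, 417 of Camp, 172 of S100a9, 55 of Ngp, 36 of Elane, 11 of Ltf, 3 of Ly6g and 2 of Retnlg. Smooth muscle markers were lower with TME-CM than with H-CM at 24 h (4 of 5 called, such as Des, -0.98). Fibroblast markers were higher (4 of 5 called, such as Dcn, 1.21), where 5.4% of all genes were called. The part of these cell types in the levels of the 9 genes was not tested.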

How the data were processed

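RNA of 36 EGC libraries was sequenced by the authors as 3′ ends (QuantSeq), aligned with HISAT2 to mm10 with multi-mapping reads discarded, handled with SAMtools 1.5, checked with FastQC 0.11.7 and counted per gene with HT-seq. The deposited table holds raw counts. The annotation, the strand setting and whether molecular identifiers were used are not given in the sources used here, so overlapping genes on opposite strands (Cp with Hps3, Slc11a2 with Gm5475, Ftl1 with Gm10252) cannot be told apart, and counting intervals cover counting error only. Samples were grouped by medium and time from the labels, and no column was left out.

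Counts were normalized by TMM and tested with edgeR 4.0.16 (R 4.3.3, limma 3.58.1) by the robust quasi-likelihood test, over genes passing filterByExpr with a minimum count of 10, in the 12 libraries of each time point. Contrasts across times used the 24 libraries of both times. P-values were adjusted by Benjamini-Hochberg over all genes tested (9256 at 6 h, 12156 at 12 h and 12713 at 24 h). Levels are CPM on library sizes scaled by TMM over all 36 libraries. A SE is the absolute log2 fold change over the square root of the F statistic. A gene was called at an adjusted p under 0.05. Folds on 0 counts use a floor of 3 counts over the group. Likeness is the Pearson correlation of log2 CPM. The scripts were tested on simulated data. Alternatives were DESeq2 1.42.0 size factors or its Wald test, no filter, the 2 groups alone, 1 model of all 36 libraries, a replicate block, leaving out the Yam1 entry, and leaving out each library. All 9 genes are described. Of the iron and regulator lists, the genes called with TME-CM over H-CM at 24 h were named. Other genes of the lists were named only in part, where their level bears on a result. The members and lists were chosen with earlier results of these data known.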

Additional observations from a re-analysis of the deposited data

Results flagged for a closer look

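Within groups of 4 libraries, 13 of 80 tested groups had a highest or lowest library beyond Dixon's 95% limit, where chance flags about 1 in 20 groups. For Lcn2 these were H-CM 6 h replicate 4 at 110 CPM (3 counts), H-CM 12 h replicate 1 at 40.1 CPM, unstimulated 24 h replicate 3 at 2.40 CPM and H-CM 24 h replicate 1 at 87.8 CPM. Steap4 stood apart in unstimulated 24 h replicate 1 at 0.502 CPM (2 counts) and in H-CM 24 h replicate 1 at 9.18 CPM. The latter library was thus the highest of its group for both genes. Slc39a14 was at 89.3 CPM in unstimulated 6 h replicate 3 (17 counts), Tfrc at 33.1 CPM in unstimulated 12 h replicate 1, and Slc11a2 at 64.3 CPM in H-CM 12 h replicate 3. Slc40a1 was at 73.6 CPM in H-CM 6 h replicate 4 (2 counts) and at 3.20 CPM in TME-CM 12 h replicate 2 (8 counts). Ftl1 was at 12.3 CPM in unstimulated 12 h replicate 2 (30 counts) and at 43.1 CPM in unstimulated 24 h replicate 1.

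The difference of Lcn2 between TME-CM and unstimulated cells was larger at 12 h than at 6 h by 6.92 on the log2 scale, by the test of that change itself. The call was lost without TME-CM 6 h replicate 3 (adjusted p = 0.0665). Part of the change lay in unstimulated cells, at -2.38 from 6 to 12 h (not called).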

How the results depend on the processing

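Among 34 called values over 512 alternative fits, no direction turned. The call was lost in 48 of these fits, 18 with another setting and 30 without 1 library. The fits reuse most of the same libraries, so an unchanged direction says little. The counts below are of the 9 genes only, and the number of all genes called also moves with the setting. With TME-CM over H-CM at 24 h, for example, it was 686 in the main fit and 675 with the replicate block. The counts thus show how far calls depend on the processing and are not results about the 9 genes as a set. Of the 9 genes, the number called with TME-CM over H-CM at 24 h went from 7 to 4 in 1 model of all 36 libraries, and over unstimulated cells from 8 to 5. That model also called 1 gene with TME-CM over H-CM at 6 h, 3 over unstimulated cells at 6 h, 2 with TME-CM from 6 to 12 h, and 1 and 2 for the change from 6 to 12 h of TME-CM against H-CM and against unstimulated cells. TME-CM over unstimulated cells at 6 h, 1 call, went to 0 with DESeq2 size factors, the 2 groups alone or the replicate block, to 2 with no filter or with DESeq2, and to 0 to 2 without a replicate. H-CM over unstimulated cells at 12 h, 1 call, went to 5 with no filter, 3 with DESeq2, 0 with the 2 groups alone and 0 to 1 without a replicate. At 24 h it went from 4 to 2 with the 2 groups alone and to 1 to 4 without a replicate. With no filter 2 genes were called with TME-CM from 12 to 24 h (1 by DESeq2), 1 with H-CM, 1 for the change of TME-CM against unstimulated cells over that time and 1 in unstimulated cells from 6 to 12 h (0 to 1 without a replicate). From 6 to 12 h with TME-CM, DESeq2 size factors, no filter and DESeq2 each gave 2 calls (1 to 2 without a replicate). For the change against H-CM from 6 to 12 h, no filter and DESeq2 gave 1 (0 to 1 without a replicate), and for that against unstimulated cells 2 (0 to 1).

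Leaving out a replicate turned the direction of values that were not called. Ftl1 ran from -0.32 to 0.32 for TME-CM over H-CM at 12 h, from -0.37 to 0.11 over unstimulated cells, and from -0.41 to 0.24 for H-CM over unstimulated cells. At 24 h it ran from -0.34 to 0.027 for TME-CM over H-CM and from -0.014 to 0.35 over unstimulated cells. For H-CM over unstimulated cells, Slc40a1 ran from -0.24 to 0.14 at 12 h and Slc39a14 from -0.34 to 0.33 at 24 h. The cause of these shifts was not tested.

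Over all genes, few same-numbered libraries deviated together (at 24 h 4 of 12 pairs had a correlation over 0.1), and no source says that a number marks a shared culture. The summed macrophage markers, however, were higher in replicates 1 and 2 than in replicates 3 and 4 in every medium at 12 and 24 h, a hint from the data that the numbers may mark something shared. With the replicate block, Cp with TME-CM over unstimulated cells at 6 h was 2.71 and not called (adjusted p = 0.121), Lcn2 with H-CM over unstimulated cells at 24 h was 3.66 and not called (adjusted p = 0.0608), and Steap4 in the latter comparison was 4.72 and called (adjusted p = 0.00108), and the block changed no other call among the values recomputed. The 6 h results are limited by the wider spread between replicates and by 1 H-CM library of 13518 counts.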
